A study of Homo sapiens with 76 samples.

Results

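Peroxiredoxins, thioredoxin and the enzymes that work with them remove peroxides and superoxide from cells. The 10 genes described here were chosen by name: PRDX1, PRDX2, PRDX3, PRDX4, PRDX5, TXN, TXNRD1, GPX4, SOD1 and SOD2. All 10 had a row among the 17513 gene rows of the deposited table. They were described over 76 cells, sequenced singly, of the cell line HEK293, which derives from human embryonic kidney. The cells were grown in medium with fetal calf serum and captured on a microfluidic chip with 96 chambers, with no treatment and no compared group. Transcripts were tagged at their 5′ ends with unique molecular identifiers (UMIs), random tags that allow the copies of 1 cDNA molecule to be counted once.

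Superoxide dismutases convert superoxide into hydrogen peroxide, and peroxiredoxins reduce that peroxide with a reactive cysteine. Thioredoxin returns oxidised peroxiredoxins to their reduced form and is itself reduced by thioredoxin reductase, a selenoprotein, with NADPH. GPX4, another selenoprotein, uses glutathione to reduce lipid peroxides within membranes. Several of these genes, TXN and TXNRD1 among them, are known targets of NRF2, the transcription factor that responds to oxidative stress.

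Cells held 7305 to 43392 endogenous UMIs, with a median of 20966, and 1390 to 3132 UMIs of added spike-in RNA. The labels name 1 line and 1 run and no replicate cultures, so cells were units of observation and not replicates. No test between groups was possible, and every SD describes the spread over these 76 cells. Of markers of the line, VIM and UCHL1 were each seen in 70 cells, KRT18 in 45 and KRT8 in 19. Of 13 markers of blood, fibroblast, muscle and liver cells, 6 had a row in the table. They gave 23 UMIs in all, led by COL1A1 with 12 UMIs in 8 cells and HBA1 with 5 UMIs in 5 cells, and FGG had 0.

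Upstream windows of the members were searched for binding motifs, as these are the regulatory sequences nearest to the transcript starts that the assay tags. RefSeq windows (GRCh38.p14, 250 bases before to 50 after a gene start) were matched for 8 of the 10 genes, with 15 windows in all. No window was matched for PRDX1 and SOD1, so these genes were not searched. The antioxidant response motif to which NRF2 binds was searched as TGACNNNGC and the E-box as CACGTG, on both strands. TGACNNNGC was found in 2 of the 15 windows, both of TXNRD1, against 13.3% of all 35116 windows. CACGTG was found in 2 windows, those of PRDX3 and PRDX4, against 7.26% of all windows. The stretches around these matches are shown 5′ to 3′ on the strand of the gene, with the motif in capitals.
PRDX3, chr10:119178944-119178989, minus strand, motif 157 bases before the start: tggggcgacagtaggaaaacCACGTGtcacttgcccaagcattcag
PRDX4, chrX:23667390-23667435, plus strand, motif 83 bases before the start: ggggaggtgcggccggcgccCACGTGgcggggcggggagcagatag
TXNRD1, chr12:104215660-104215708, plus strand, motif 99 bases before the start: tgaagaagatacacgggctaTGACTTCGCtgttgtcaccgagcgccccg
TXNRD1 from another start, chr12:104286910-104286958, plus strand, motif on the opposite strand, 102 bases before the start: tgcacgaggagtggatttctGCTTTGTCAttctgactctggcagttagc
The upstream TXNRD1 window also held the motif on the opposite strand, 8 bases before the start. A match describes letters in these windows only, and binding was not measured.

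Together the 10 genes took 0.764% ± 0.128 of a cell's endogenous UMIs (SD, n = 76 cells). The lowest cell stood at 0.473%, the median at 0.775% and the highest at 1.02%. The summed share thus spanned 2.15-fold from lowest to highest cell. In UMIs, the sum was 171 ± 79.4 per cell, from 54 to 390. Scaled by the spike-ins at 20000 molecules per cell, this came to an estimated 1516 ± 616 messenger RNA molecules per cell, if cellular and spike-in RNA were captured alike. Peroxiredoxins made up 43.2% of the members' UMIs, TXN with TXNRD1 28.9%, SOD1 with SOD2 18.4% and GPX4 9.53%.

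TXN, which encodes cytosolic thioredoxin, was the most abundant member. It gave 12 UMIs in the lowest cell, 44 in the median cell and 122 in the highest, with a mean of 47.7 ± 21.1. By mean UMIs it ranked 86 among all genes, and it was seen in every cell. TXNRD1, which encodes the cytosolic reductase of thioredoxin, gave 0 UMIs in the lowest cell, 1 in the median cell and 10 in the highest, with a mean of 1.79 ± 2.30. It was seen in 46 of 76 cells (60.5%, exact Clopper-Pearson 95% interval 48.6% to 71.6%). The counts of these genes did not meet in any cell: TXN was higher than TXNRD1 in 76 of 76. Summed over cells, TXN had 26.6 UMIs for each UMI of TXNRD1.

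Peroxiredoxins covered a narrower range of levels. PRDX1, the main cytosolic peroxiredoxin gene here, gave 4 UMIs in the lowest cell, 27 in the median cell and 81 in the highest, with a mean of 31.3 ± 18.8. PRDX2, its cytosolic relative, gave 1, 10 and 39 UMIs in the lowest, median and highest cell, with a mean of 11.6 ± 7.34. PRDX1 was higher than PRDX2 in 72 cells and lower in 3, by 19.7 ± 16.4 UMIs within a cell. Both genes were seen in all 76 cells.

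PRDX3, whose product resides in mitochondria, gave 0 UMIs in the lowest cell, 13 in the median cell and 35 in the highest, with a mean of 13.1 ± 8.74. PRDX4, the peroxiredoxin of the endoplasmic reticulum, gave 1, 9 and 30 UMIs in the lowest, median and highest cell, with a mean of 11.5 ± 7.35. PRDX5, found in mitochondria, peroxisomes and cytosol, gave 0, 6 and 25 UMIs, with a mean of 6.37 ± 4.30. PRDX2, PRDX3 and PRDX4 could not be ordered by level. PRDX3 exceeded PRDX2 in 39 cells and fell short in 34, with a within-cell difference of 1.51 ± 9.21 UMIs, and PRDX2 exceeded PRDX4 in 42 cells and fell short in 30.

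SOD1, which encodes the cytosolic copper and zinc dismutase, gave 4 UMIs in the lowest cell, 26 in the median cell and 73 in the highest, with a mean of 29.8 ± 15.1. Its level matched that of PRDX1 within the spread: PRDX1 was higher in 36 cells, SOD1 in 39, and the difference was 1.58 ± 15.4 UMIs. SOD2, which encodes the manganese dismutase of mitochondria, gave 0, 1 and 8 UMIs in the lowest, median and highest cell, with a mean of 1.75 ± 1.88. SOD2 had a UMI in 54 of the cells (71.1%, with an exact 95% interval from 59.5% to 80.9%). SOD1 was higher in every cell, by 28.01 ± 14.3 UMIs. The mitochondrial PRDX3 had a mean 7.51 times that of SOD2.

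GPX4 gave 0 UMIs in the lowest cell, 14 in the median cell and 66 in the highest, with a mean of 16.3 ± 12.4. In the order of means it stood between SOD1, which was higher in 69 cells, and PRDX3, which was lower in 40 cells and higher in 27. Of the 9 steps between neighbours in the order, 2 exceeded the SD of the within-cell difference: TXN over PRDX1 (16.3 ± 14.4 UMIs) and SOD1 over GPX4 (13.4 ± 11.8 UMIs). TXNRD1 and SOD2 had nearly equal means, with TXNRD1 higher in 28 cells, SOD2 in 33 and equal counts in 15.

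**Figure D1:**
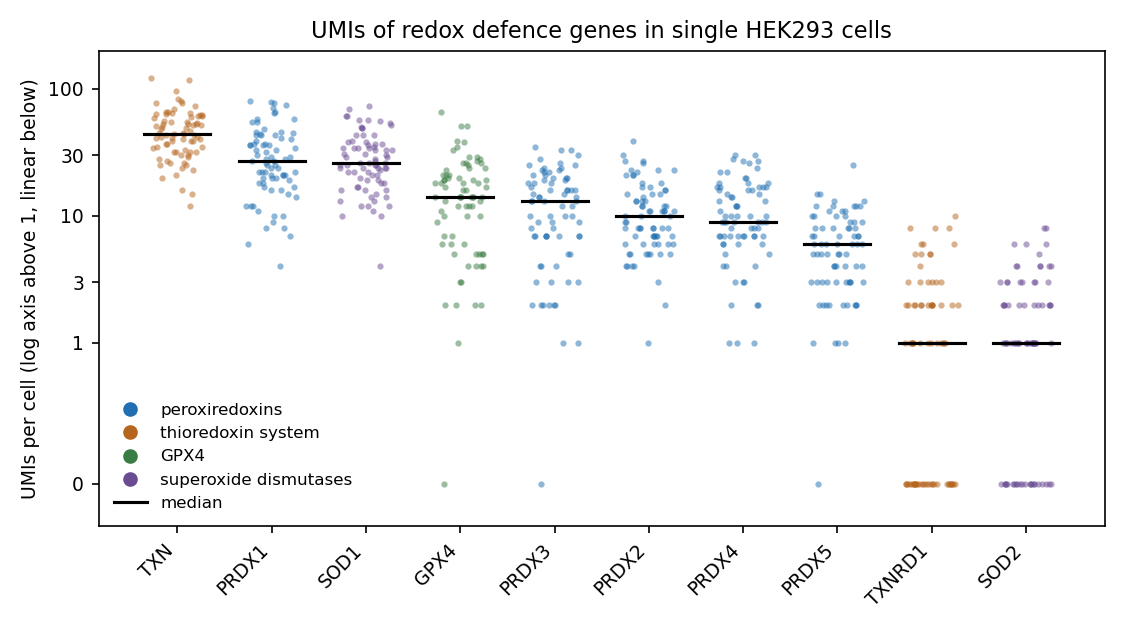
UMIs of each gene in each of the 76 cells, 1 point per cell, on a vertical axis that is logarithmic above 1 UMI and linear below. Black lines are medians, from 44 UMIs for TXN to 1 for TXNRD1 and SOD2, the only genes with more than 1 cell at 0.

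Among the 8 more abundant genes, a count of 0 occurred in 3 gene and cell combinations, each in a different cell. GPX4 had 0 UMIs in a cell with 16598 endogenous UMIs, where a count of 0 allows a share of up to 0.0181%, against a mean GPX4 share of 0.0692% ± 0.0364. PRDX5 had 0 in a cell with 28534 UMIs, which allows up to 0.0105% against a mean of 0.0304% ± 0.0195. PRDX3 had 0 in a cell with 11711 UMIs, which allows up to 0.0256% against a mean of 0.0568% ± 0.0304. Each limit (3 counts of the cell's total) covers counting error only and lies below the mean share of its gene. TXNRD1 had 0 UMIs in 30 cells and SOD2 in 22, at means of 1.79 and 1.75 UMIs. How many of these zeros follow from depth was not tested, and thinning the observed counts cannot show it. With cells brought to 10940 UMIs, the share of 71 cells expected to show a UMI was 44.9% for TXNRD1 and 52.99% for SOD2.

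Each tag counts 1 molecule whatever its length, so UMIs were not divided by length. The cDNA must reach from the poly(A) tail to the 5′ end, however, and longer messages may be counted less often. By the median length of coding transcripts in GENCODE 29, TXNRD1 (1933 bases) and PRDX3 (1591 bases) were the longest members and PRDX5 (596 bases) and TXN (752 bases) the shortest. The medians of SOD2 and SOD1 were 917 and 915.5 bases. Such a median weights all annotated coding transcripts alike (11 for SOD2, 2 for SOD1). The lengths of the messages present in these cells were not measured. The effect of length on these levels was not tested. GENCODE 29 names 21 processed copies of 7 of the genes, 7 of them copies of TXN. Of these, 4 had a row, with 24 UMIs in all, and how reads shared with copies were assigned is not given in the sources used here. PRDX1 overlaps MMACHC and SOD2 overlaps WTAP on the opposite strand. These had 23 and 127 UMIs over all cells, the latter near the 133 of SOD2, so the SOD2 value is uncertain if strand was not used in counting. On the same strand PRDX2 overlaps HOOK2 and TXNRD1 overlaps EID3.

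The genes differed in how far their counts spread beyond counting noise. The Pearson dispersion compares the squared deviation of a gene's count, from that expected from each cell's total, with the expectation itself; counting noise alone gives 1. Spike-in RNA was added to each cell from 1 mix, and over 36 such RNAs the median was 1.53 and the highest value 2.20. GPX4 had 3.88, PRDX1 3.86, TXN 3.57, PRDX3 2.90, PRDX5 2.48, SOD1 2.37 and PRDX2 2.24, all above the highest spike-in. TXNRD1 (2.13), PRDX4 (1.85) and SOD2 (1.54) were below it.

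Thus 7 of 10 genes exceeded every spike-in, where 21.6% of the 2810 genes with a mean of at least 1 UMI did so. Dispersion grows with abundance for an equal relative spread, and 8 of the 10 genes have a mean of at least 5 UMIs. Of these 8, 7 exceeded the limit, against 52% of 646 genes of that abundance. With totals free of ribosomal protein and mitochondrial genes as the scale, PRDX2 was no longer above the limit, and with spike-in totals as the scale PRDX4 and TXNRD1 were above it too. The latter scale put 46.8% of all genes above the limit, so the rise was general.

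**Figure D2:**
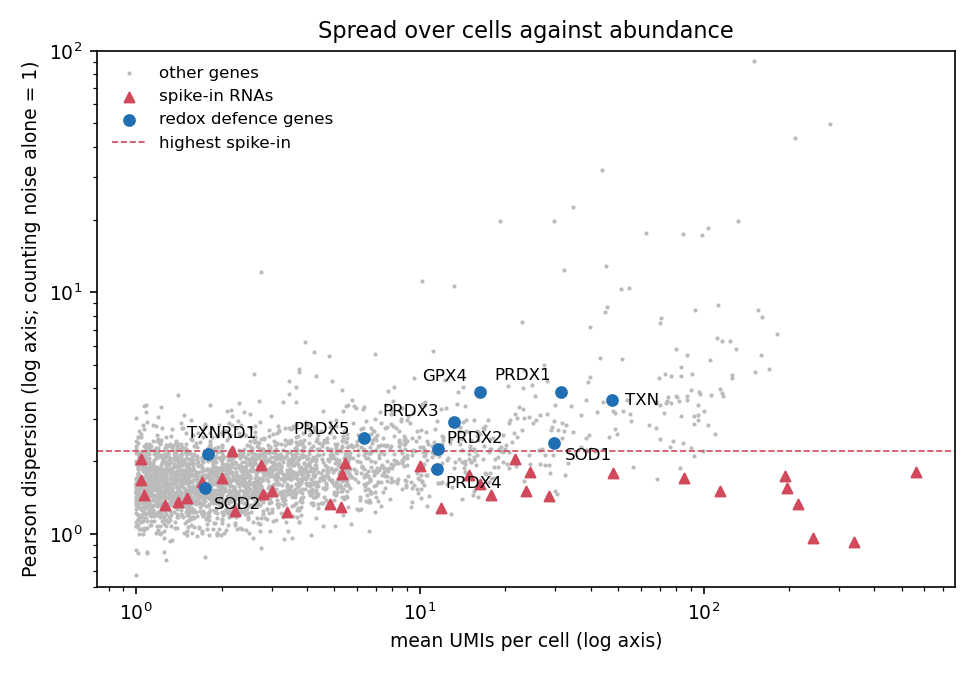
Pearson dispersion of the 2810 genes averaging 1 UMI or more (grey), of the redox defence genes (blue) and of spike-in RNAs (red triangles) against mean UMIs per cell, both on log axes. The dashed line is the highest spike-in at 2.20; GPX4, PRDX1 and TXN lie farthest above it among the 10 genes.

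Relative spread free of counting noise still depended on abundance. Its square was 0.0493 to 0.173 for spike-ins averaging 5.29 to 5.45 UMIs, and 0.0156 for the spike-in averaging 47.9. After the counting part was removed, the coefficient of variation was 20.4% for SOD1, 21.8% for TXN, 25.6% for PRDX4, 30.2% for PRDX1, 31.7% for PRDX2, 34.5% for PRDX3, 42.3% for GPX4 and 44.6% for PRDX5. SOD1 and TXN had the lowest values among these 8, and GPX4 and PRDX5 the highest. These values were not corrected for the dependence on abundance, and PRDX5 had the lowest mean of the 8. The value for TXNRD1 (82.9%) rests on a mean below 2 UMIs and is imprecise. The same measure for the sum of the 10 genes was 13.9%. Squared, a gene's value was set against the 5 spike-ins nearest to it in mean, which carry technical spread. TXN (0.0477 against a highest of 0.0327), PRDX1 (0.0909 against 0.0482) and GPX4 (0.179 against 0.0489) exceeded them, as did PRDX3, PRDX2, PRDX5 and TXNRD1 by smaller factors. SOD1 (0.0414 against 0.0482), PRDX4 (0.0655 against 0.0895) and SOD2 (0.325 against 0.539) did not. By this rule 7 of 10 genes stood out, against 26.8% of all 2810 genes, and 6 of the 8 with a mean of at least 5 UMIs, against 46%.

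The 10 genes did not vary as 1 block from cell to cell. Over all 45 pairs, the median Spearman rho of their shares was 0.0331 (-0.262 to 0.397), against 0.0144 over all pairs of the 2810 genes. All correlations here run over the 76 cells, which share library preparation, depth differences and a common total, and are given as descriptions. With endogenous totals as the scale, PRDX1, PRDX3 and GPX4 were the exception. The rho was 0.393 for PRDX1 with PRDX3, 0.397 for PRDX3 with GPX4 and 0.362 for PRDX1 with GPX4. Cells with a large share of 1 of these messages tended to have large shares of the other two.

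PRDX2 had a rho of 0.301 with SOD1, which was 0.270 with totals free of ribosomal protein and mitochondrial genes and 0.236 as Pearson r of log2 values. PRDX4 had 0.289 with SOD1, while PRDX2 and PRDX3 had the lowest value of all pairs (-0.262). TXN was close to 0 with GPX4 (-0.0148) and with its reductase gene TXNRD1 (-0.0295). SOD1 and SOD2 had 0.0853. In all, 4 of the 28 pairs among the 8 more abundant genes reached 0.3, a limit chosen after their values were seen, where 2.67% of 208335 pairs of such genes did. The shares of PRDX1, PRDX3 and GPX4 had a rho of 0.279, 0.373 and 0.279 with spike-in UMIs and of 0.212, 0.258 and 0.250 with endogenous UMIs. PRDX4 had 0.189 and 0.228. Over the 8 more abundant members the values ranged from -0.211 to 0.373 with spike-in UMIs and from -0.244 to 0.258 with endogenous UMIs. With both depths held constant, the 3 pairs were at 0.324, 0.327 and 0.305. PRDX3 with TXN (0.325) and PRDX2 with SOD1 (0.313) also passed 0.3 there, so the 3 pairs did not stand apart. With UMIs scaled by spike-ins, a cell's RNA content and its spike-in total entered both measures. All pairs then moved up (median 0.319, and 0.654 to 0.661 for the 3 pairs). PRDX4 with SOD1 (0.651) and TXN with SOD1 (0.646) were close to the 3 pairs.

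**Figure D3:**
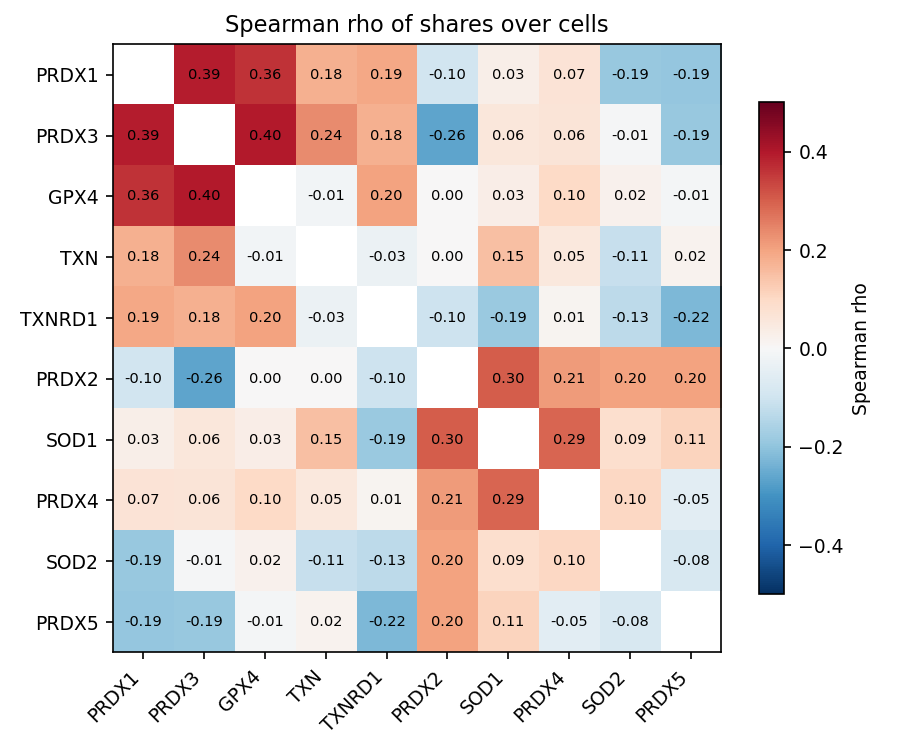
Spearman rho between the shares of each pair of genes over 76 cells, as colour and number. PRDX1, PRDX3 and GPX4 form the upper left corner with 0.36 to 0.40; PRDX2, SOD1 and PRDX4 are at 0.21 to 0.30 with one another.

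**Figure D4:**
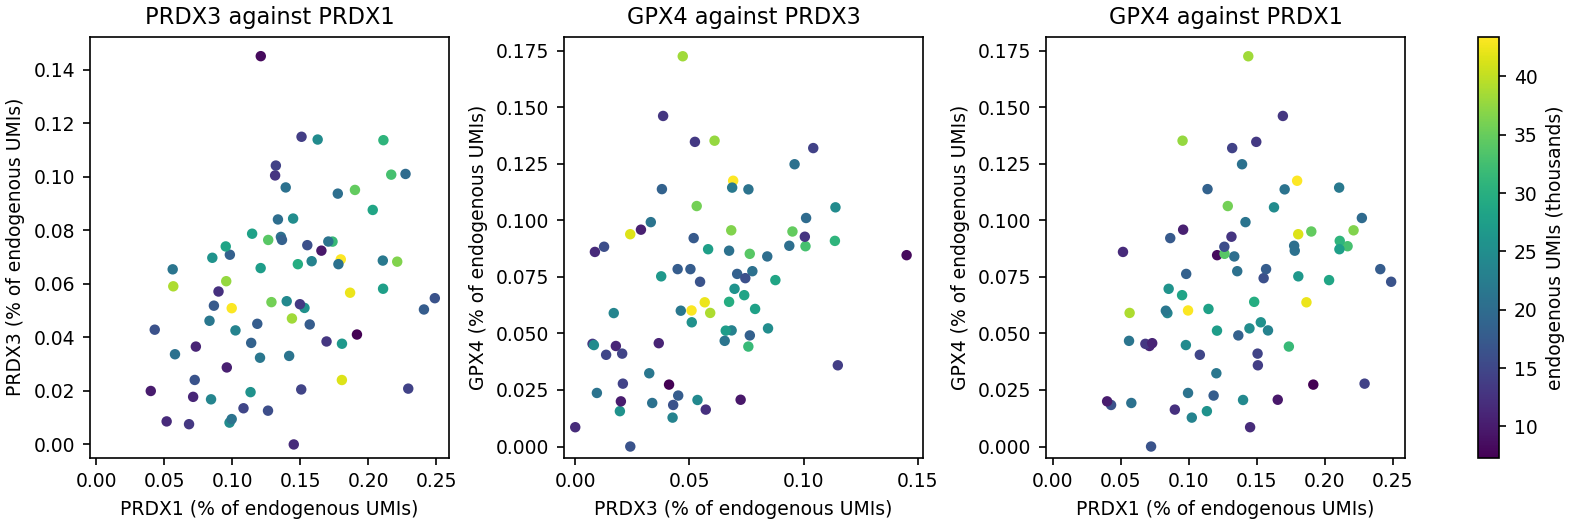
Shares of PRDX1, PRDX3 and GPX4 in percent of endogenous UMIs, plotted against one another with 1 point per cell and coloured by depth in endogenous UMIs. The cell with the highest GPX4 share (0.173%) and the cell with the highest PRDX3 share (0.145%) are different cells, and the points scatter widely.

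Relations of the 8 more abundant members to sets of other messages were read with the same limit of 0.3. With endogenous totals as the scale, at most 1 of the 8 passed it for each set and direction. Where 1 did, 5.02% to 14.8% of genes did so too, so these counts do not set the members apart. PRDX3 had a rho of 0.468 with the summed share of the 13 messenger RNAs of the mitochondrial genome (0.463 without the 2 extreme cells, 0.475 with both depths held constant). Among genes with a mean of at least 5 UMIs outside that list, 7.58% had 0.3 or more. PRDX2 had -0.317 with the same share, where 14.8% of genes had -0.3 or lower, and this was -0.279 with totals free of ribosomal protein and mitochondrial genes and turned to 0.131 with spike-in scaling. With the former totals PRDX1 (0.303) and TXN (0.302) also passed 0.3 with the mitochondrial share. The share of all genes passing was computed for endogenous totals only, so these passes do not set the members apart. TXN had 0.448 with the share of 39 nuclear genes of oxidative phosphorylation (0.402 without the 2 extreme cells), where 8.51% of genes had 0.3 or more. None of the 8 more abundant members had -0.3 or lower with the nuclear list, as 5.4% of genes did. For the same nuclear list PRDX3 had 0.120, and for the mitochondrial genome TXN had 0.196. The difference between the genes was not tested.

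GPX4 had a rho of 0.399 with the share of S phase genes (0.374 without the 2 extreme cells), where 5.02% of genes had 0.3 or more, and -0.403 with the share of ribosomal protein genes, where 10.7% had -0.3 or lower. The latter turned to 0.446 with spike-in scaling. None of the 8 had -0.3 or lower with S phase genes, as 6.58% of genes did, or 0.3 or more with ribosomal protein genes, as 4.39% did. With totals free of ribosomal protein and mitochondrial genes, GPX4 was at -0.255 and TXN at 0.401 with ribosomal protein genes, so both changed sides of the limit. For these totals too the share of all genes passing was not computed. TXNRD1, with its low counts, had 0.331 with S phase genes and -0.378 with ribosomal protein genes. With the G2 and M phase share, the 8 more abundant members ranged from -0.248 to 0.227, and PRDX4 stood at -0.314 with both depths held constant. The summed share of the 10 genes had a rho of 0.381 with the nuclear oxidative phosphorylation share, 0.203 with S phase, -0.202 with G2 and M phase, 0.199 with mitochondrial messenger RNA, 0.0276 with endogenous UMIs and -0.0160 with ribosomal protein genes.

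Among 1067 genes outside the redox lists with a mean of at least 3 UMIs, the summed share was most like that of ATP5G3, a subunit of ATP synthase (rho = 0.477 over 76 cells). H2AFZ, a histone variant gene, followed at 0.428, then RPS26 at 0.419, RPL23 at 0.394 and CYCS, which encodes cytochrome c, at 0.390. The least alike were EEF1D (-0.391), the nuclear long non-coding RNA MALAT1 (-0.376) and YBX1 (-0.360), and these 3 turned to 0.173 to 0.180 with spike-in scaling. By single member, PRDX3 was most like CALM2, a calmodulin gene (rho = 0.604), GPX4 like UBE2T (0.540), TXN like RPS26 (0.462), PRDX1 like ZNRD1 (0.442) and PRDX5 like NDUFA3 (0.441). PRDX2 was most like TRAPPC2L (0.395), SOD1 like CLNS1A (0.380) and PRDX4 like PSMA7 (0.362). For single members the search ran over 1095 genes and was not limited to those outside the redox lists. All these values are extremes of a search over many genes and were not tested.

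The relations of 6 other genes to each member were also read. MYC and MALAT1 are given because they had like values with PRDX1, PRDX3 and GPX4. In that order CALM2 (0.375, 0.604 and 0.353) and YBX1 (-0.369, -0.573 and -0.327) did so too. With the same members UBE2T had 0.177 to 0.540 and RPS26 -0.0533 to 0.280. Being chosen for this, MYC and MALAT1 do not support a grouping of PRDX1, PRDX3 and GPX4. MYC, at 5.76 ± 6.11 UMIs per cell, had a rho of 0.440 with PRDX1, 0.575 with PRDX3 and 0.443 with GPX4, and 0.0126 with TXN. With both depths held constant these were 0.383, 0.524, 0.373 and 0.128. MALAT1 had -0.396 with PRDX1, -0.465 with PRDX3 and -0.502 with GPX4, but 0.0604 with SOD1 and 0.0962 with PRDX2. With both depths held constant, MALAT1 had -0.355, -0.419 and -0.473 with PRDX1, PRDX3 and GPX4.

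Other genes of redox metabolism were read from lists by role. In all, 93 genes outside the 10 had a row, and they took 1.19% ± 0.127 of UMIs (0.883% to 1.54%). The summed share of the 10 had a rho of 0.0854 with theirs. Of the 45 with a mean of at least 1 UMI, 13 exceeded every spike-in in dispersion, against 21.6% of all genes.

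The list of thioredoxin-related genes was led by PRDX6, the remaining peroxiredoxin gene, at 12.5 ± 6.70 UMIs (3 to 29). This level was close to PRDX2, PRDX3 and PRDX4. A place in this list does not mean that the product works with thioredoxin. The squared coefficient of variation of PRDX6 free of counting noise was 0.0355, below the 0.0414 of SOD1, the lowest of the members. TXNDC17, a thioredoxin-like protein gene, followed at 7.58 ± 5.21, TXNL4A at 4.61 ± 3.35 and the glutaredoxin gene GLRX3 at 4.54 ± 3.06. The ribonucleotide reductase genes RRM2 (3.91 ± 3.59) and RRM1 (3.34 ± 3.05), whose enzyme is reduced by thioredoxin or glutaredoxin, were above TXNRD1 too. The mitochondrial thioredoxin gene TXN2 gave 2.88 ± 2.22 UMIs and was seen in 64 cells, and its reductase gene TXNRD2 in 5. TXNRD2, with 6 UMIs, was at the level of HBA1, with 5.

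Of other peroxidase genes, GPX1 gave 4.17 ± 3.03 UMIs, below GPX4, and MGST3 gave 3.68 ± 2.60. CAT, which encodes catalase, gave 22 UMIs in 19 cells (25% of cells, with an exact 95% interval from 15.8% to 36.3%). In the glutathione list, the conjugating enzyme gene GSTP1 reached 31.6 ± 16.4 UMIs, level with PRDX1, and the glyoxalase gene GLO1 15.5 ± 8.85. ESD (6.34 ± 4.49), GSTO1 (5.38 ± 3.09) and CBS (3.64 ± 3.19) followed. Genes of glutathione synthesis and reduction were sparse, with GSR in 34 cells, GSS in 27, GCLM in 25, GCLC in 14 and the cystine transporter gene SLC7A11 in 10.

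In the NRF2 list, the ferritin genes FTH1 (32.7 ± 15.5 UMIs) and FTL (25.4 ± 14.6) were as abundant as PRDX1 and SOD1; both have many processed copies, which makes these values uncertain. PARK7 gave 8.22 ± 5.69 and TALDO1 4.55 ± 3.53 UMIs. NFE2L2, which encodes NRF2, was seen in 30 cells and its inhibitor KEAP1 in 26. Of genes known to be strongly induced by NRF2, 3 were near the level of genes these cells should lack. NQO1 was seen in 9 cells, HMOX1 in 2 and the sulfiredoxin gene SRXN1 in 3. COL1A1 was seen in 8, HBA1 in 5 and MYH11 in 3 of the same cells. Other targets were seen more often, with TXNRD1 in 46 cells and GCLM in 25, so the 3 genes do not describe all targets. TXNIP, which encodes a binding partner of thioredoxin, was seen in 3 cells, like SRXN1. These are levels in unstimulated culture and describe cells with a UMI, not cells that express the gene.

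Selenoprotein genes and their machinery took 0.0940% ± 0.0410 of UMIs over 16 genes, led by SELK at 3.78 ± 3.46. SEPSECS had a UMI in 0 of the cells, for which the exact 95% interval reaches 4.74%. Of copper and superoxide genes, the copper chaperone genes COX17 (8.78 ± 4.88) and ATOX1 (6.57 ± 4.49) led, with the oxidase subunit gene CYBA at 4.82 ± 3.88. CCS, which encodes the chaperone that loads copper onto SOD1, was seen in 11 cells with 16 UMIs, beside 2262 UMIs of SOD1 itself.

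**Figure D5:**
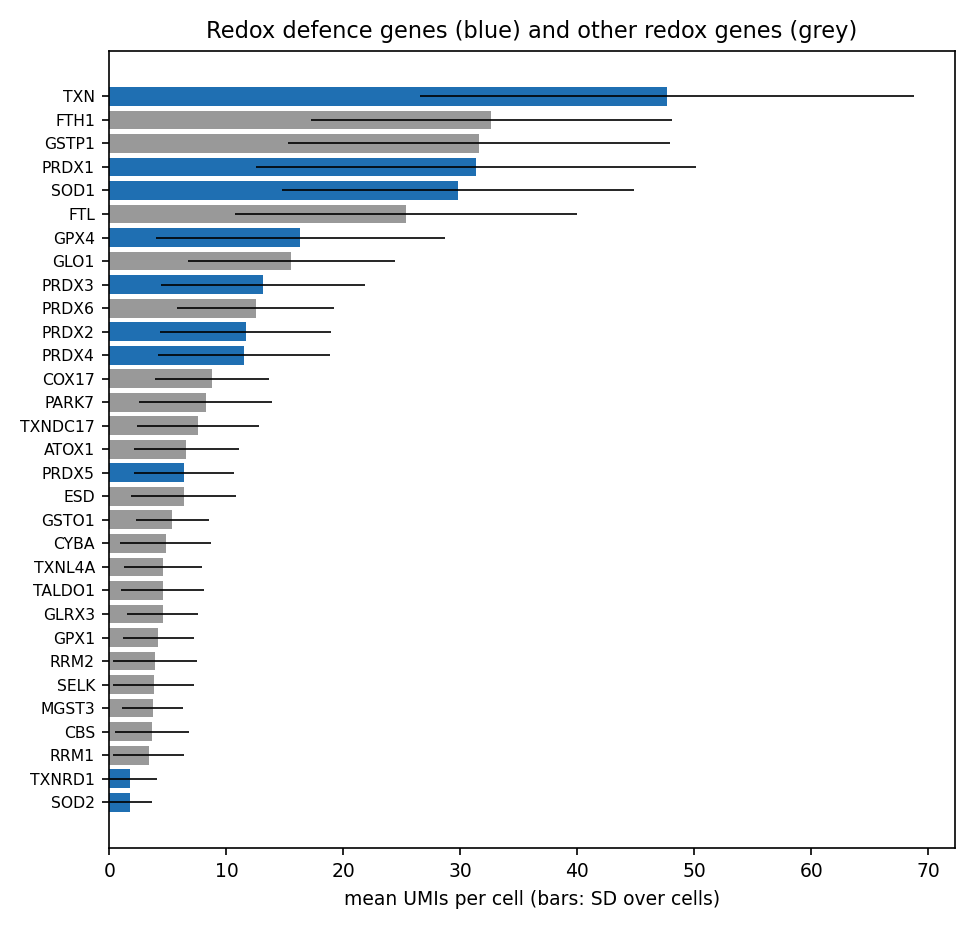
Mean UMIs per cell of the 10 genes (blue) and of other redox genes with a mean of at least 3 UMIs (grey), with bars for the SD over 76 cells. TXN has the highest mean of all 31 genes at 47.7 UMIs, while TXNRD1 and SOD2 lie below every other gene shown at under 2 UMIs.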

How the data were processed

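Counts of UMIs per gene and cell were used as deposited by the authors, in 1 table of 17594 rows and 76 columns. Among tools, cutadapt 1.2.1 and STAR 2.4.0a are listed by the submitters' processing notes, with hg19 (GRCh37) as build. How reads were counted, on which annotation, and how cells were filtered is not given in the sources used here. A row that repeats the column numbers (0.197% of the sum of values) was left out, and 80 spike-in rows were held separately. Run name and number tied columns to cells.

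A share is a gene's percentage of the endogenous UMIs in a cell. Dispersion and the extra squared coefficient of variation (moment estimate) were computed for all genes with a mean of at least 1 UMI, with cell totals as the scale for genes and spike-in totals for spike-ins, and were tested on simulated data. Correlations held constant for depth used ranks with endogenous and spike-in UMIs regressed out. Expected detection at 10940 UMIs is the hypergeometric expectation without the 5 cells under 10483 UMIs. Python 3.11.15, pandas 2.3.3 and scipy 1.17.1 were used. Intervals and limits cover counting error only.

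The 10 genes, the lists and the measures were chosen with earlier results of these data known. Named outside the 10 were redox list genes with a mean of at least 3 UMIs, the 5 genes most and 3 least like the summed share, and the gene most like each member with a mean of at least 5 UMIs; sparse list genes, TXN2, MYC and MALAT1 by member were added after their values were seen. Listed names without a row were not analysed here.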

Additional observations from a re-analysis of the deposited data

How the results depend on the processing

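Mean UMIs of the 10 genes moved by less than 1 SD without the 5 shallow cells, with a correction for tag collisions and without the highest cell. Leaving out so few cells can hardly move a mean by 1 SD, so this limit does not test how stable the means are. The summed share was 1.18% of UMIs when ribosomal protein and mitochondrial genes were left out of the total, which follows from the smaller total, and stayed within 1 SD as a pooled share and without the shallow cells. With no filter on low counts, 0 of the 10 genes exceeded every spike-in and 0.473% of 16918 genes did, since rare spike-ins raise the highest dispersion to 5.10. With spike-in totals 9 of 10 did (46.8% of genes), with totals free of ribosomal protein and mitochondrial genes 6 of 10 (22%), without the shallow cells 7 of 10 (17.9%), among genes averaging 3 UMIs or more 7 of 8 (49.9%), and against the nearest spike-ins 7 of 10 (26.8%). With spike-in scaling the median rho between members was 0.319 and the rho of the summed share with nuclear oxidative phosphorylation 0.883. A cell's RNA content and its spike-in total enter both sides of these values, and the effects of each were not told apart. The rho with nuclear oxidative phosphorylation was 0.505 with totals free of ribosomal protein and mitochondrial genes, the cause of which was not tested. Of the values for single genes, pairs and other measures, 87 moved by less than their limit, among them the means above. The other 17 moved by more, 10 of these with spike-in scaling. There the rho of the summed share with G2 and M phase genes turned from -0.202 to 0.590 and that with ribosomal protein genes from -0.0160 to 0.762. The rank correlation given both depths was added after seeing the data. Detection of TXNRD1 and SOD2 at 2 UMIs was 42.1% of cells each. No paired analysis was possible because the labels hold 1 group. Depth limits TXNRD1, SOD2 and the sparse redox genes most.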
